A study of Mus musculus with 3 samples.

Results

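The genes described here are 47 components of the Wnt pathway in the mouse: 11 Wnt ligand genes outside the ligand pairs, 15 receptor genes, the 4 R-spondin genes, 14 antagonist genes and the feedback and nuclear genes Axin2, Lef1 and Tcf7. In all, 21627 protein-coding genes of the autosomes and X were considered. Regions were taken when the authors' gene-name column held a member or when the region overlapped the member's gene bounds by at least 1 bp. That gave 42 of 7838 regions in replicate 1 and 44 of 8093 in replicate 2.

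The regions come from ChIP-seq, the sequencing of DNA pulled down with an antibody, here against the ubiquitinated form of histone H2A (H2AK119ub) laid down by Polycomb repressive complex 1. Each of the 2 biological replicates came from control newborns of postnatal day 0, as tongue epithelium sorted for the epithelial surface protein EpCAM after removal of the posterior circumvallate papillae, and 1 input library was not analysed here. The labels call the tissue non gustatory, give no strain, sex or number of animals per replicate, and include no group with altered Polycomb function. The lists hold positions, a location class and gene names but no height, read count or expression value, so the depth is unknown, the labelled cell type could not be checked against marker expression, and a region does not tell what share of the cells carries the mark.

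Wnt proteins are secreted lipid-modified signals. They bind Frizzled receptors together with the co-receptors Lrp5 and Lrp6, which stabilises beta-catenin, and beta-catenin then acts with Tcf and Lef transcription factors on target genes such as Axin2. R-spondins, acting through Lgr receptors, keep Frizzled on the cell surface by restraining the ubiquitin ligases Znrf3 and Rnf43, whereas Dkk, Sfrp, Wif1 and Notum proteins limit the signal outside the cell. In the embryonic tongue the pathway promotes the formation of taste papillae.

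Promoter sequences are shown for the ligand, the receptor and the antagonist with the widest promoter region among those with an entry in the RefSeq promoter table, each followed by the first listed gene of its role with no region in either list. Axin2 was added after its values were seen because its promoter region lay beyond the start. Notum had a wider region than Wif1 and has no entry. Each sequence holds the 250 bases before the most upstream listed start, 5′ to 3′ on the gene's own strand, from RefSeq on GRCm38.p6, and capitals mark CpG dinucleotides. The listed starts of Wnt2 and Axin2, and their printed sequences, lie well inside the gene bounds used for overlap.
Wnt11, chr7:98834862-98835111, plus strand, 37 CpG: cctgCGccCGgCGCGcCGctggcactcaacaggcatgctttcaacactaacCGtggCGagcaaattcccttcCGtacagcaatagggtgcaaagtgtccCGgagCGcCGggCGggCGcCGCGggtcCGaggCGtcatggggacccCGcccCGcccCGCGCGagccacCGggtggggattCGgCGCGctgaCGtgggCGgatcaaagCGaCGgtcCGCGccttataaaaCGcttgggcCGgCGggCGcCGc
Wnt2, chr6:18030446-18030695, minus strand, 20 CpG: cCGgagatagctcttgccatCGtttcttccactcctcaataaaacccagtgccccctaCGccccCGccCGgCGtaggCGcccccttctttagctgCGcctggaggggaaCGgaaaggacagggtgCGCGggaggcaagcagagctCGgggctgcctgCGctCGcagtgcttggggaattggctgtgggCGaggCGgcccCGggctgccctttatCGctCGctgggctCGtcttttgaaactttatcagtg
Lgr6, chr1:135105277-135105526, minus strand, 16 CpG: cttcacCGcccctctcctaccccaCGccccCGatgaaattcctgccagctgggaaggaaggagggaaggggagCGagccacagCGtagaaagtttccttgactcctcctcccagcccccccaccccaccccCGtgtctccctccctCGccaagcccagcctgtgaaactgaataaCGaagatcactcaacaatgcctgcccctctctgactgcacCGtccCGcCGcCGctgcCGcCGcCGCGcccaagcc
Fzd1, chr5:4758217-4758466, minus strand, 12 CpG: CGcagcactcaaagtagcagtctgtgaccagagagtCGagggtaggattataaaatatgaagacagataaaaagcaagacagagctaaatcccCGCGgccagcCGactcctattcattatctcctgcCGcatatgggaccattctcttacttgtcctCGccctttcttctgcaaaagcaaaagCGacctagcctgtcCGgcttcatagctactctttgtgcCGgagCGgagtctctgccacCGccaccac
Wif1, chr10:121033754-121034003, plus strand, 21 CpG: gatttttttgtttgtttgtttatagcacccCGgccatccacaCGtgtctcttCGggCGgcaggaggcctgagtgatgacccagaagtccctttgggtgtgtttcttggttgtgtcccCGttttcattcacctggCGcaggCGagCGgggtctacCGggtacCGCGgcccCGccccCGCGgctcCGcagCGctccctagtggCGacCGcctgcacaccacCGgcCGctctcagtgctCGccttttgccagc
Dkk1, chr19:30549497-30549746, minus strand, 6 CpG: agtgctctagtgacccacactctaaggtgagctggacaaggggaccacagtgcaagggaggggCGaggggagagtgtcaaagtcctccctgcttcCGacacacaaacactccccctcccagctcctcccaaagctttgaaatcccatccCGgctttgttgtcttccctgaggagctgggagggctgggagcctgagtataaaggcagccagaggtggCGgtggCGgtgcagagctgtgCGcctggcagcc
Axin2, chr11:108920099-108920348, plus strand, 24 CpG: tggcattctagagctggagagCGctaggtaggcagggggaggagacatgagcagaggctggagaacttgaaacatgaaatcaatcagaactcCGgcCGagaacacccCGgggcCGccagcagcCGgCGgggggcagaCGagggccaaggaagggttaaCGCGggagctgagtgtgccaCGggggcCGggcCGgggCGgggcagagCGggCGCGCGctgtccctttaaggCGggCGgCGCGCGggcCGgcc

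The Wnt11 sequence holds 37 CpG dinucleotides and that of Wnt2, which had no region, holds 20. Wif1 with 21 and Dkk1 with 6 differ in the same direction, and Lgr6 with 16 stands close to Fzd1 with 12. These pairs illustrate the range of the sequences and were not drawn to represent the groups.

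A promoter region named 13 of the 47 genes in both replicates (27.7%), beside 8.82% of all protein-coding genes. They were the ligands Wnt2b, Wnt7b, Wnt11 and Wnt16, the receptors Fzd9, Fzd10, Lrp5 and Lgr6, the antagonists Wif1 and Notum, and all of Axin2, Lef1 and Tcf7. Another 7 genes had a promoter region in 1 replicate only, 5 had regions of another kind in both replicates, 4 had such a region in 1 replicate, and 18 had no region in either list. The members were chosen with earlier results of these data known, so these shares are given as a description, with no test.

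By role, both replicates named 4 of 11 ligands (36.4%), 4 of 15 receptors (26.7%), 2 of 14 antagonists (14.3%), 0 of 4 R-spondins and 3 of 3 feedback and nuclear genes. The replicates set the ligands and receptors in a different order. Replicate 1 named 4 ligands (36.4%) and 5 receptors (33.3%), beside 12.8% of all genes, and replicate 2 named 5 ligands (45.5%) and 7 receptors (46.7%), beside 12.4%. The mean over the lists was 40.9% ± 6.43 (SD, n = 2) for ligands and 40.0% ± 9.43 for receptors, a difference smaller than the replicate SD. Antagonists were lower in each list, with 3 of 14 (21.4%) in replicate 1 and 2 of 14 (14.3%) in replicate 2, a mean of 17.9% ± 5.05. With so few genes per role, 1 antagonist more or fewer moves its share by more than the distance between its share in both replicates and the background.

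When regions of every class were counted in both replicates, by name or by overlap, the ligands stood above the receptors and antagonists. A region of some class named 8 of 11 ligands in both replicates (72.7%), 6 of 15 receptors (40.0%) and 4 of 14 antagonists (28.6%), beside 15.3% of all protein-coding genes. A region lay over the gene bounds of 6 ligands (54.5%), 3 receptors (20.0%) and 4 antagonists (28.6%) in both replicates, beside 13.3%. Neither count required the regions of the replicates to overlap, and those of Wnt5b, Fzd2 and Sfrp1 did not. The ligands did not stand above the receptors when at least 50% of the gene bounds had to be covered. That rule left 1 ligand, 2 receptors and 1 antagonist, beside 3.66% of all protein-coding genes. Ligands and receptors were also closer when a region within 5000 bp of either gene end was counted in both replicates. This gave 5 of 11 ligands, 6 of 15 receptors and 3 of 14 antagonists, beside 14.1% of all protein-coding genes. Counted in either replicate, by name or overlap, ligands and receptors were close, at 9 of 11 (81.8%) and 11 of 15 (73.3%), with 5 of 14 antagonists (35.7%), beside 28.5%. Longer genes offer more room for overlap, but whether gene length accounts for these shares was not tested. The median gene was 21.9 kb long among the ligands, 7.19 kb among the receptors, 24.0 kb among the antagonists and 17.3 kb over all protein-coding genes. The short receptor median came from the Frizzled genes, whose median was 4.59 kb.

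**Figure D1:**
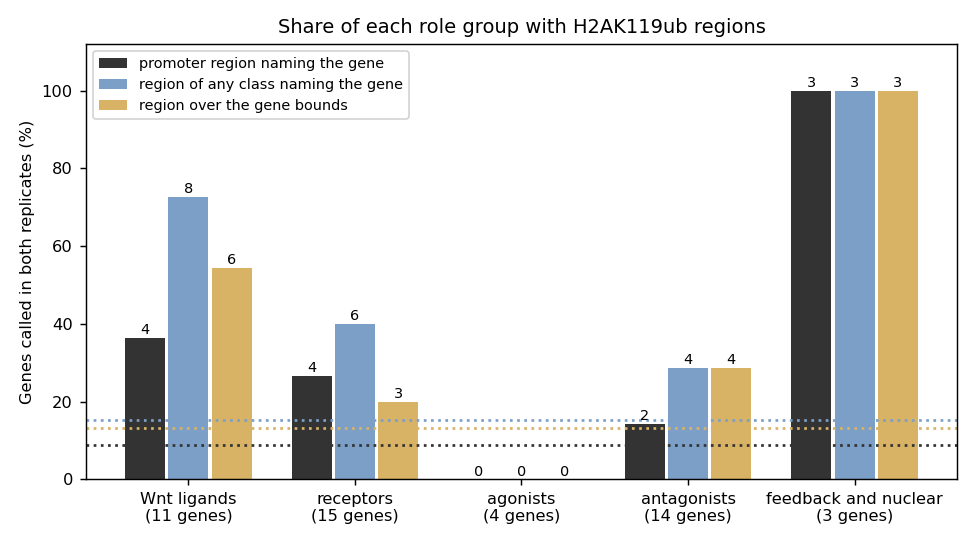
Percentage of genes in each role group (bars, y axis) called in both replicates by 3 rules, with the number of genes above each bar and, as a dotted line of the same colour, the share of all protein-coding genes. The ligand bars for any class (8 of 11) and for gene bounds (6 of 11) are higher than those of receptors and antagonists. None of the 4 R-spondin genes was called in both replicates, where the dotted lines lie at 8.82%, 15.3% and 13.3%.

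Among the ligands, Wnt11 had the widest promoter region. Wnt11, a ligand best known for signalling without beta-catenin, had promoter regions of 28.2 kb in replicate 1 (chr7:98816592-98844794) and 24.4 kb in replicate 2 (chr7:98816591-98840972). Both stood at percentile 97.0 of width in their lists. The upstream edges of these regions differ by a single base, 18520 and 18521 bp before the start, while the downstream edges lie 9682 and 5860 bp after it. Further upstream, distal regions named Wnt11 in both replicates and shared 7.55 kb.

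Wnt7b, an epithelial ligand, lay in a promoter region of 25.7 kb in replicate 1 (chr15:85560579-85586250) and of 12.1 kb in replicate 2 (chr15:85573015-85585157). The narrower region sat wholly inside the wider one, and both also named the noncoding gene AU022754. Beyond the gene, 2 distal regions in each replicate named Wnt7b, and they shared 15.2 kb between replicates. Wnt2b had promoter regions of 10.4 kb (chr3:104957161-104967533) and 13.4 kb (chr3:104957831-104971264), and Wnt16 had regions of 14.4 kb (chr6:22279910-22294348) and 9.37 kb (chr6:22285261-22294628). For each of these 4 ligands the regions of the replicates overlapped, with a shared part between 47.3% (Wnt7b) and 93.5% (Wnt2b) of the replicate 1 region.

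The other ligands had no promoter region in both replicates. At Wnt7a, a ligand of dorsal limb and neural patterning, a promoter region of 13.7 kb was called in replicate 2 alone (chr6:91405349-91419091), although a gene body region of 2.79 kb in replicate 1 and 2.50 kb in replicate 2 lay at the same place, beginning 31771 and 31948 bp past the start. Wnt4, which acts in kidney and female reproductive tract development, had only distal regions. They measured 13.7 kb in replicate 1 and 11.8 and 15.3 kb in replicate 2, and the nearest of them ended 2977 bp before the start and was still classed as distal. Wnt8b had gene body regions that shared 10.2 kb between replicates and distal regions that shared 6.92 kb, with its start uncovered in both.

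Wnt5b had a region in each replicate but not at the same place. In replicate 1 it was a distal region of 2.50 kb, 4.55 kb outside the gene, and in replicate 2 a gene body region of 4.53 kb, with a further 4.77 kb region over the gene that the authors assigned to the promoter of Fbxl14. Wnt8a had a region of 6.57 kb in replicate 1 only. Wnt2 and Wnt5a, the latter the best studied ligand of beta-catenin-independent signalling, had none. The nearest region to Wnt2 was 480 kb away in each list, and the nearest to Wnt5a was 40.9 and 44.5 kb away.

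Of the 10 Frizzled genes, Fzd9 and Fzd10 had promoter regions in both replicates. Fzd10 lay in regions of 17.9 kb (chr5:128591743-128609621) and 14.3 kb (chr5:128589422-128603726), which also named the noncoding gene 5930412G12Rik and covered 100% and 87.7% of Fzd10. Fzd9 had regions of nearly equal width, 5.27 kb (chr5:135249012-135254284) and 5.19 kb (chr5:135249254-135254446), and these regions covered 96.5% and 85.0% of the gene. In width the Fzd10 regions ranked at percentiles 91.4 and 90.6 of their lists and those of Fzd9 at percentiles 53.3 and 59.1.

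No other Frizzled gene was named by a promoter region in both replicates. Fzd2 was named by a 1.73 kb promoter region of replicate 1 (chr11:102604834-102606563), beside a region of 10.3 kb over the gene's high-coordinate end (chr11:102607657-102618005) that the authors classed as distal. Together these covered 58.8% of Fzd2. In replicate 2 only a distal region of 1.46 kb named it, 4.83 kb from the nearest replicate 1 region and outside the gene. Fzd4 was named, with the neighbouring gene Tmem135, by a promoter region of 4.08 kb in replicate 2 that ended 1130 bp before its start. In replicate 1 a region of 2.12 kb at the Tmem135 promoter ended 1000 bp from Fzd4, nearer than that of replicate 2, and did not carry its name. Both lists thus had a region near Fzd4, and why only 1 named it was not tested. Fzd6 had overlapping distal regions of 1.72 and 3.12 kb, 13.1 and 13.0 kb from the gene. Fzd5 had distal regions in replicate 1 only and Fzd7 in replicate 2 only, while Fzd1, Fzd3 and Fzd8 had none.

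The co-receptors differed from each other. Lrp5 had promoter regions of 4.43 kb (chr19:3686453-3690882) and 2.30 kb (chr19:3686855-3689156), the narrowest of the 13 genes, and they lay at or 0.27 kb beyond the high-coordinate end of the gene and covered at most 0.131% of it. Lrp6 had no region, with the nearest 28.3 and 238 kb away.

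Among the Lgr receptors, only Lgr6 was named by a promoter region in both replicates. Lgr6, which marks epithelial stem cells in skin, lay in a region of 21.7 kb in replicate 1 (chr1:135094658-135116349) and 41.0 kb in replicate 2 (chr1:135075300-135116278), the latter the widest promoter region of any member and at percentile 99.4 of its list. The upstream edges lay 11073 and 11002 bp before the start. The replicate 2 region reached 30.0 kb past the start, over the stretch where replicate 1 had a separate gene body region of 11.0 kb, so the difference in width lay on the gene body side. Regions covered 31.3% and 36.8% of the gene. Lgr4 and Lgr5, the latter a marker of stem cells in several epithelia, had promoter regions of 4.65 and 5.92 kb in replicate 2 and none in replicate 1, where the nearest regions were 168 and 621 kb away.

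None of the 4 R-spondin genes had a region in both replicates, where a region of some class named 15.3% of all protein-coding genes. Rspo1 was named by a 13.2 kb promoter region of replicate 2 (chr4:124980475-124993715) at percentile 89.2 of width, yet the nearest replicate 1 region was 72.9 kb away. Rspo2, Rspo3 and Rspo4 had no region in either list, as did 71.5% of all protein-coding genes. The nearest lay 2540 and 1040 kb from Rspo2, 1300 kb from Rspo3 in each list, and 170 and 81.5 kb from Rspo4.

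Of the 10 secreted antagonists, Wif1 and Notum had promoter regions in both replicates. Notum, the enzyme that strips the lipid from Wnt proteins, lay in regions of 21.5 kb (chr11:120646829-120668307) and 13.2 kb (chr11:120654756-120667921), which covered 100% and 86.9% of the gene. The replicate 1 region also named Myadml2. Wif1, which binds Wnt proteins in the extracellular space, had regions of 10.1 kb (chr10:121028905-121039041) and 10.3 kb (chr10:121029506-121039774) that shared 94.1% and 92.9% of their lengths.

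Sfrp genes encode decoys that resemble the Wnt-binding part of Frizzled. Sfrp2 had a promoter region 15.6 kb wide in replicate 1 (chr3:83759433-83775009) and, in replicate 2, only a gene body region of 2.30 kb over the far end of the gene, which shared 2.18 kb with it. Sfrp1 had a gene body region in each replicate, 8.97 and 6.79 kb wide, which did not overlap and lay 4.52 kb apart. Sfrp4 and Sfrp5 had none.

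All 4 Dkk genes, whose products Dkk1, Dkk2 and Dkk4 bind the Lrp co-receptors, lacked a region in both lists, as did 71.5% of all protein-coding genes. The nearest regions were 369 and 339 kb from Dkk1, 853 and 672 kb from Dkk2, 46.5 and 40.3 kb from Dkk3 and 162 and 342 kb from Dkk4. The Dkk receptors Kremen1 and Kremen2 and the ubiquitin ligase gene Znrf3 also had no region. Rnf43, which acts like Znrf3, had a gene body region of 8.32 kb in replicate 1 only. In all, 9 of 14 antagonists had no region in either list (64.3%), near the 71.5% of all protein-coding genes. The same held for 2 of 11 ligands (18.2%), 4 of 15 receptors (26.7%) and 3 of 4 R-spondins (75.0%). Over these 18 genes the distance to the nearest region ran from 13.2 kb at Kremen1 to 2540 kb at Rspo2, and 8 of them lay more than 100 kb from any region of both lists.

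Axin2, Lef1 and Tcf7 act downstream in the pathway and were named by a promoter region in each replicate. Axin2, a scaffold of the complex that degrades beta-catenin and a widely used target gene, had promoter regions of 10.3 kb (chr11:108920928-108931233) and 14.2 kb (chr11:108921131-108935317). Both began past the listed start, by 579 and 782 bp, and extended into the gene, leaving the printed CpG-rich sequence outside them. The gene bounds begin upstream of that start, at position 108917828. Distal regions upstream of Axin2, 23.0 kb wide in replicate 1 and 3.43 kb in replicate 2, overlapped over the whole of the latter.

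Lef1 showed the opposite arrangement. Its promoter regions of 16.6 kb (chr3:131095406-131112052) and 11.8 kb (chr3:131102217-131114041) reached 14.9 and 8.08 kb upstream of the most upstream start and 1.76 and 3.74 kb past it. Tcf7 had regions of 12.8 kb (chr11:52270342-52283144) and 8.54 kb (chr11:52274289-52282832) that lay almost wholly downstream. The replicate 1 region began 130 bp before the most upstream start and the replicate 2 region 182 bp after it, though still over another listed start. The Lef1 and Tcf7 proteins bind DNA and partner with beta-catenin.

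**Figure D2:**
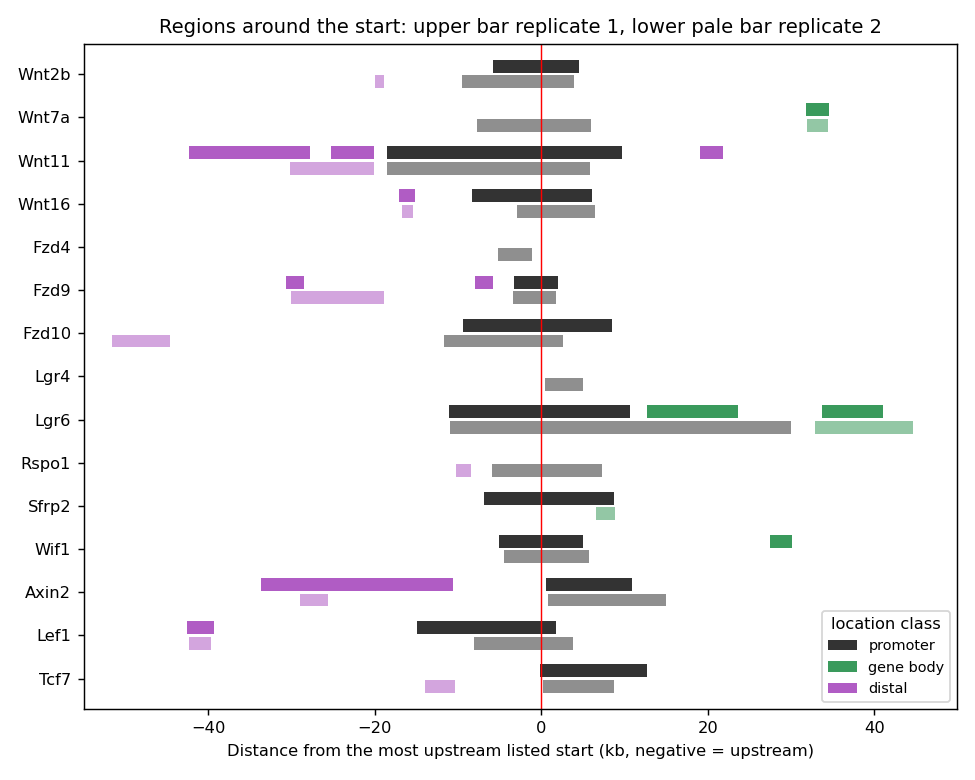
Regions (bars) of the 15 members that have a promoter region in at least 1 replicate and a listed start, by distance in kb from that start along the gene's strand, coloured by location class, with replicate 1 above and replicate 2 in a paler shade below. The upstream edges of the replicates lie 1 bp apart at Wnt11 and at 11073 and 11002 bp before the start at Lgr6, the Axin2 regions begin past the start, and Lgr4 and Rspo1 have regions in replicate 2 only. A replicate 1 region near Fzd4 that names Tmem135 alone is not drawn. Gene body regions beyond the plotted range, at Lgr6 in both replicates and at Lef1 in replicate 1, are also not drawn.

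Start positions were listed for 28 of the 47 genes. A region covered a listed start in both replicates in 9 of them (32.1%), beside 5.58% of 17273 protein-coding genes with a listed start. The 9 were the 10 genes with a promoter region in both replicates and a listed start, without Axin2. Distal regions of 9 members overlapped between replicates, namely those of Wnt4, Wnt7b, Wnt8b, Wnt11, Wnt16, Fzd6, Fzd9, Axin2 and Lef1. They made up 19.1% of the members, beside 2.88% of all protein-coding genes, and included 5 of 11 ligands, 2 of 15 receptors and 0 of 14 antagonists. Distal regions made up 42.9% of the member regions in replicate 1 and 38.6% in replicate 2, beside 26.6% and 27.0% of all regions outside the intergenic class.

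The replicates also differed in which members they named. Of 20 members named by a promoter region in either list, 13 were named in both (65.0%), beside 53.8% of the 3549 protein-coding genes named in either. Replicate 2 alone named Wnt7a, Fzd4, Lgr4, Lgr5 and Rspo1, and replicate 1 alone named Fzd2 and Sfrp2. Over all genes the balance was the other way, with 859 named by replicate 1 alone and 782 by replicate 2 alone. By overlap with the gene bounds the lists were even: each had a region over 20 members (42.6%), beside 18.1% of all protein-coding genes in each list. Of these members, 4 were in replicate 1 alone (Fzd2, Lrp5, Rnf43 and Wnt8a) and 4 in replicate 2 alone (Lgr4, Lgr5, Rspo1 and Wnt5b). The replicate 2 region of Lrp5 lay wholly inside that of replicate 1 but 0.27 kb outside the gene bounds. In both lists the share was 34.0% of the members, beside 13.3% of all protein-coding genes. The absence of a region in a list does not show that the mark is absent there.

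Where both replicates had a promoter region, its median width over the 13 genes was 14.4 kb in replicate 1 and 12.1 kb in replicate 2. Over all 1908 protein-coding genes named in both replicates it was 10.7 and 9.08 kb. Ligand regions had medians of 20.1 and 12.8 kb, receptor regions 11.6 and 9.75 kb, antagonist regions 15.8 and 11.7 kb, and those of the feedback and nuclear genes 12.8 and 11.8 kb. These medians rest on 4, 4, 2 and 3 genes, and within receptors the range from Lrp5 to Lgr6 was wider than the distance between roles. The ratio of the replicate 1 to the replicate 2 width ran from 0.529 at Lgr6 to 2.11 at Wnt7b.

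**Figure D3:**
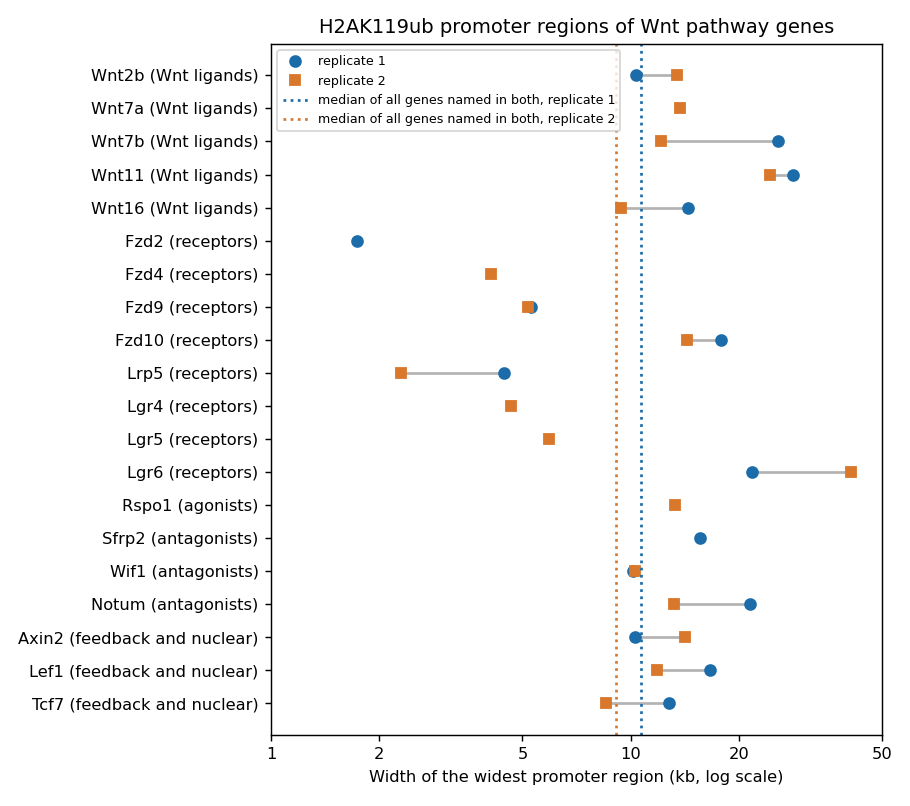
Width in kb (log axis) of the widest promoter region of each of the 20 members with such a region, with replicate 1 as circles, replicate 2 as squares and a grey line joining the replicates of a gene. Dotted lines give the medians of all genes named in both replicates, 10.7 and 9.08 kb. Wnt11, Wnt7b, Lgr6, Fzd10, Notum and Lef1 lie above both lines in both replicates, and Fzd9 and Lrp5 lie below them.

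Polycomb complexes in mammals are known to favour CpG-rich promoters, so the letters of the promoter windows were compared. The window ran from 250 bases before to 50 after the most upstream listed start, 300 bases in all. The 10 members with a promoter region in both replicates and an entry had a median of 37 CpG dinucleotides per window (range 10 to 53), the 5 with a promoter region in 1 replicate had 29 (18 to 42) and the 13 with none had 17 (6 to 51). Over all protein-coding genes the median was 20 for the 1444 named in both replicates and 13 for the 15829 others. Unlike the 13 members with none, these others include genes named in 1 replicate.

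The overlap between these groups was wide. Fzd9 had the highest count, 53, with regions in both replicates, but Wnt4 with 51 and Wnt5b with 47 had no promoter region, and Wnt16 had a promoter region in both with 10. Rspo4 (31) and Wnt2 (27) had more CpG than Lef1 (18) and no region. The Dkk genes with an entry, Dkk1 and Dkk2, had 9 and 11.

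**Figure D4:**
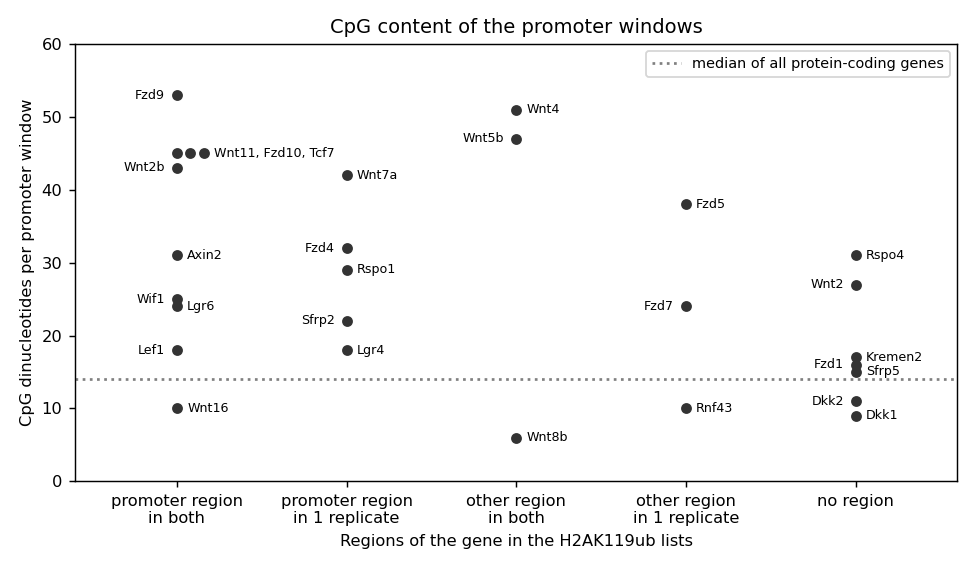
CpG dinucleotides per promoter window of 300 bases (y axis) for the 28 members with an entry, 1 point per gene, by the regions the gene had in the lists. The dotted line is the median of all protein-coding genes, 14. Of the 10 genes with a promoter region in both replicates, 9 lie above it and Wnt16 below it, and Wnt4 and Wnt5b are high without a promoter region.

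The core of the Tcf and Lef binding motif, searched as CTTTGA on both strands, occurred in the windows of 3 of 28 members (10.7%), namely Wnt11, Fzd1 and Dkk1. It occurred in 14.9% of all protein-coding windows of the same length. These matches describe the letters and not binding.

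For promoter regions, the rest of the pathway gave a similar share. Of 54 other pathway genes listed from general knowledge of the pathway, 14 were named by a promoter region in both replicates (25.9%) and 24 in either (44.4%), beside 8.82% and 16.4% of all protein-coding genes. No region was tied to 22 of them (40.7%), beside 71.5%. Distal regions overlapped between replicates in 1 of the 54 (1.85%), beside 19.1% of the 47 members and 2.88% of all protein-coding genes. By the mean width of the replicates, the widest regions belonged to Wnt10a with its neighbour Wnt6 (28.9 and 43.4 kb), the co-receptor gene Ror2 (30.3 and 18.0 kb), the Apc relative Apc2 (36.0 and 12.3 kb), the ligand gene Wnt3 (24.6 and 20.0 kb) and the secreted Lrp antagonist gene Sost (19.8 and 24.6 kb). Among them, a subset formed after the values were seen holds the genes of the intracellular relay, namely Dvl1, Dvl2, Dvl3, Apc, Apc2, Axin1, Gsk3a, Gsk3b, Csnk1a1 and Ctnnb1. Of these 10, Apc2 had a region and the other 9 had none in either list, beside 71.5% of all protein-coding genes without a region. The Apc2 promoter region also named 2310011J03Rik, Rps15, Pcsk4 and Reep6 in replicate 1 and Rps15 in replicate 2. Axin2, a scaffold of the complex that degrades beta-catenin, was counted among the members and had a promoter region in both replicates. The count therefore depends on how the subset was drawn. All 4 Tle genes, which encode Groucho corepressors of Tcf and Lef factors, had a promoter region in at least 1 replicate, and 2 of them in both, beside the same 16.4% and 8.82%. The Tle genes were likewise a subset taken from the 54 and not one set in advance.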

How the data were processed

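The authors deposited 1 list of regions per H2AK119ub replicate in mm10, with start and end in bp, 1 of 4 location classes and gene names, per the file headers. The submitters' processing notes name Bowtie2 2.3.3 and SAMtools 0.1.19 with no role. How peaks were called, whether the input entered, whether coordinates count from 0 or 1 and how the classes were delimited is not given in the sources used here. Width is end minus start. The smallest gap between neighbouring regions was 1000 bp in replicate 1 and 999 bp in replicate 2, so closer stretches may stand joined, which affects widths and counts.

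Gene bounds, starts and promoter letters came from RefSeq tables of GRCm38.p6, the assembly that mm10 names. All 47 members matched by symbol and 28 had promoter entries. Listed names were matched by symbol, or else by an unambiguous synonym. Percentiles of width are within a list. Counting functions were tested on simulated lists. No test was run, since 1 group has no contrast and genes are not replicates. The members and lists were chosen with earlier results of these data known. All members are accounted for, and of the other pathway genes the 6 with the widest promoter regions by the mean of both replicates are given with widths. Alternatives left out a replicate or changed the rules on width, overlap and naming. Analyses used Python 3.11.15, numpy 2.4.6, pandas 2.3.3 and matplotlib 3.10.9.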

Additional observations from a re-analysis of the deposited data

How the results depend on the processing

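For 9 results, 55 values were computed under alternatives; 41 stayed within 1.5 times the count, or within the replicate SD for the width, and 14 did not. The 13 members named by a promoter region in both replicates became 20 with either replicate and 21 when any location class could name the gene, while the share of all protein-coding genes rose from 8.82% to 16.4% and 15.3%. The latter rule also raised the ligands from 4 to 8 and the antagonists from 2 to 4. Receptors rose from 4 to 8 with either replicate. They were 7 without replicate 1 and 5 without replicate 2, beside 12.4% and 12.8% of all genes. For regions over the gene bounds, receptors rose from 3 to 7 with either replicate, while the share of all genes rose from 13.3% to 22.9%. The receptors numbered 5 without replicate 1 or without replicate 2, beside 18.1% of all genes. A region covering at least 50% of the gene left 4 of 16 members (3.66% of all genes in place of 13.3%). By role it left 1 of 6 ligands, 2 of 3 receptors and 1 of 4 antagonists. Reciprocal overlap of at least 50% between replicates left 2 of 4 antagonists, beside 8.94% of all genes. The median promoter width of 13.3 kb fell to 11.3 kb over the 10 genes whose regions name no other gene. Apart from the alternatives' own construction, the cause was not tested. No paired analysis was possible because there is 1 group. Depth is unknown, so a missing region cannot be told from one below the caller's reach.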
